A study of Homo sapiens with 8 samples.

Results

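The cluster of miR-191 and miR-425 is a pair of neighbouring miRNA genes, MIR191 and MIR425, and its members here were the 4 mature arms named on the array as hsa-miR-191-5p, hsa-miR-191-3p, hsa-miR-425-5p and hsa-miR-425-3p. The rule picks them by name, with earlier results of these arrays known when the cluster was chosen, and they make up 4 of the 2549 human miRNAs on the array. The samples were INA-6 cells, an established human multiple myeloma (MM) cell line grown with interleukin-6, which was the same in both groups. The 4 control samples were treated with DMSO, the solvent, and the other 4 with 1 μM of UNC1999, a small-molecule inhibitor of the histone methyltransferase EZH2, for 120 hours, with medium and reagents renewed at 72 hours. The sample titles and the study name DMSO as the control, whereas the treatment protocol in the labels names UNC2400, an inactive form of the inhibitor, and the samples were taken as DMSO controls. One cell line stands for MM here, and neither EZH2 nor its histone mark was measured on these arrays.

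A miRNA gene is transcribed into a long primary RNA from which a hairpin is cut, and one or both arms of the hairpin then guide the silencing complex to messenger RNAs through the seed near the 5′ end. MIR191 and MIR425 lie in an intron of the protein-coding gene DALRD3 and are transcribed together with it, so the arms of both hairpins start from a shared primary RNA. The 5p arms are the usual guide strands and the 3p arms the passenger strands, and miR-191-5p and miR-425-5p are widely used as stable references in qPCR of miRNAs.

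The RefSeq sequences of 3 of the 4 mature arms are shown because the seed and the base composition help to tell arms apart. They are written 5′ to 3′ with the seed, bases 2 to 8, in capitals.
hsa-miR-191-5p: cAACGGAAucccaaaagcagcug
hsa-miR-191-3p: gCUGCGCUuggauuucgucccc
hsa-miR-425-3p: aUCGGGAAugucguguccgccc
The 3 seeds differed from each other, and no other mature entry of the RefSeq table had any of them. That table has no entry for miR-425-5p, so whether other miRNAs on the array share these seeds was not tested. Both 3p arms had 63.6% G and C, and miR-191-5p had 52.2%. hsa-miR-425-5p is named only.

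The hairpins show how the arms lie within one precursor. In the lines that follow, capitals mark the mature arms matched to the table.
MIR191: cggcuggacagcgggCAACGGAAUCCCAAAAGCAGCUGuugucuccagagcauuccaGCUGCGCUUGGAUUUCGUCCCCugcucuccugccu
MIR425: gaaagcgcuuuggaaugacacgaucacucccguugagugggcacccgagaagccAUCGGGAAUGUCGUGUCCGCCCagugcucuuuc
In the RefSeq annotation of GRCh38.p14 MIR191 lies at chr3:49020618-49020709 and MIR425 at chr3:49020148-49020234, both on the minus strand, with 383 bases between the hairpins. The span of DALRD3 holds both hairpins, and that of the neighbouring gene NDUFAF3 also holds MIR191. The scanner files name an older build, and no coordinate was taken from them.

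Each array held 53144 spots and all lay on 1 slide. The scanner software called between 369 and 500 human miRNAs detected per array. The blood-cell miRNAs miR-142-3p, miR-142-5p and miR-150-5p were detected on 8 of 8 arrays and miR-155-5p on 2, while the 10 listed miRNAs of liver, muscle, neuron, epithelium, mesenchyme and red cells were detected on 0. A level is the background-subtracted intensity, averaged over the spots of a probe and summed over the probes of a miRNA, in the scanner's arbitrary units. The brightness of an array was taken as the 75th percentile of this level over the 346 miRNAs detected on all 8 arrays. In replicate order it was 474, 349, 296 and 559 with DMSO, and 686, 708, 729 and 534 with UNC1999. The arrays of a group were alike in pairs, DMSO replicates 1 and 4 and replicates 2 and 3, and UNC1999 replicates 1 and 3 and replicates 2 and 4, so that how far 4 arrays stand for 4 separate cultures was not tested.

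hsa-miR-191-5p, the guide arm of MIR191, was detected on 0 of the 8 arrays. Its unscaled level was 9.75, 1.88, 9.05 and 7.92 on the DMSO arrays and 2.49, 8.53, -1.36 and 1.85 on the UNC1999 arrays. The groups overlapped, and a value below 0 means that the spots were dimmer than the background subtracted from them. The arm has 4 probes and 20 spots on an array, and at most 1 of the 20 was well above background on any array. Its median spot lay between -0.60 and 2.36, against a median of 1.47 to 2.68 for the 400 negative-control spots. No fold change is given for an arm below background in both groups. The spots of the arm were thus not told apart from the negative-control spots, and whether INA-6 cells lack miR-191-5p was not tested.

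hsa-miR-191-3p, the passenger arm of the same hairpin, was detected on 8 of 8 arrays. Its unscaled level was 80.8, 62.2, 60.9 and 72.3 on the DMSO arrays and 68.7, 73.3, 62.4 and 65.5 on the UNC1999 arrays. The UNC1999 values lay inside the range of the DMSO values, with means of 69.0 ± 9.35 (SD, n = 4) for DMSO and 67.5 ± 4.66 (SD, n = 4) for UNC1999. The mean of a spot was 17.3 ± 2.34 on the DMSO arrays and 16.9 ± 1.17 on the UNC1999 arrays, above the upper end of the central 95% of the negative-control spots, which was 8.42 to 13.7. Between 1 and 18 of its 20 spots on an array were called well above background.

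hsa-miR-425-5p, the guide arm of MIR425, was the brightest member per spot and the only one whose 20 spots were all well above background on every array. Its unscaled level was 193, 120, 95.9 and 217 on the DMSO arrays and 223, 248, 198 and 157 on the UNC1999 arrays. The groups overlapped, since UNC1999 replicate 4 lay below DMSO replicates 1 and 4. The DMSO mean was 156.6 ± 57.8 (SD, n = 4), and the UNC1999 mean 206 ± 38.9 (SD, n = 4). By its signal it ranked 165 of the 346 miRNAs detected on all arrays, and miR-191-3p ranked 262.

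hsa-miR-425-3p, the passenger arm of MIR425, was detected with DMSO on 4 arrays of 4 and with UNC1999 on 3 of 4, all but replicate 3. Its unscaled level was 33.5, 25.4, 24.6 and 32.1 on the DMSO arrays and 30.5, 34.3, 26.2 and 27.6 on the UNC1999 arrays. The groups overlapped almost fully, with means of 28.9 ± 4.54 (SD, n = 4) and 29.6 ± 3.58 (SD, n = 4). On UNC1999 replicate 3 the mean spot of the arm was 13.1, below the upper end of the central 95% of that array's negative-control spots, 13.7.

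**Figure D1:**
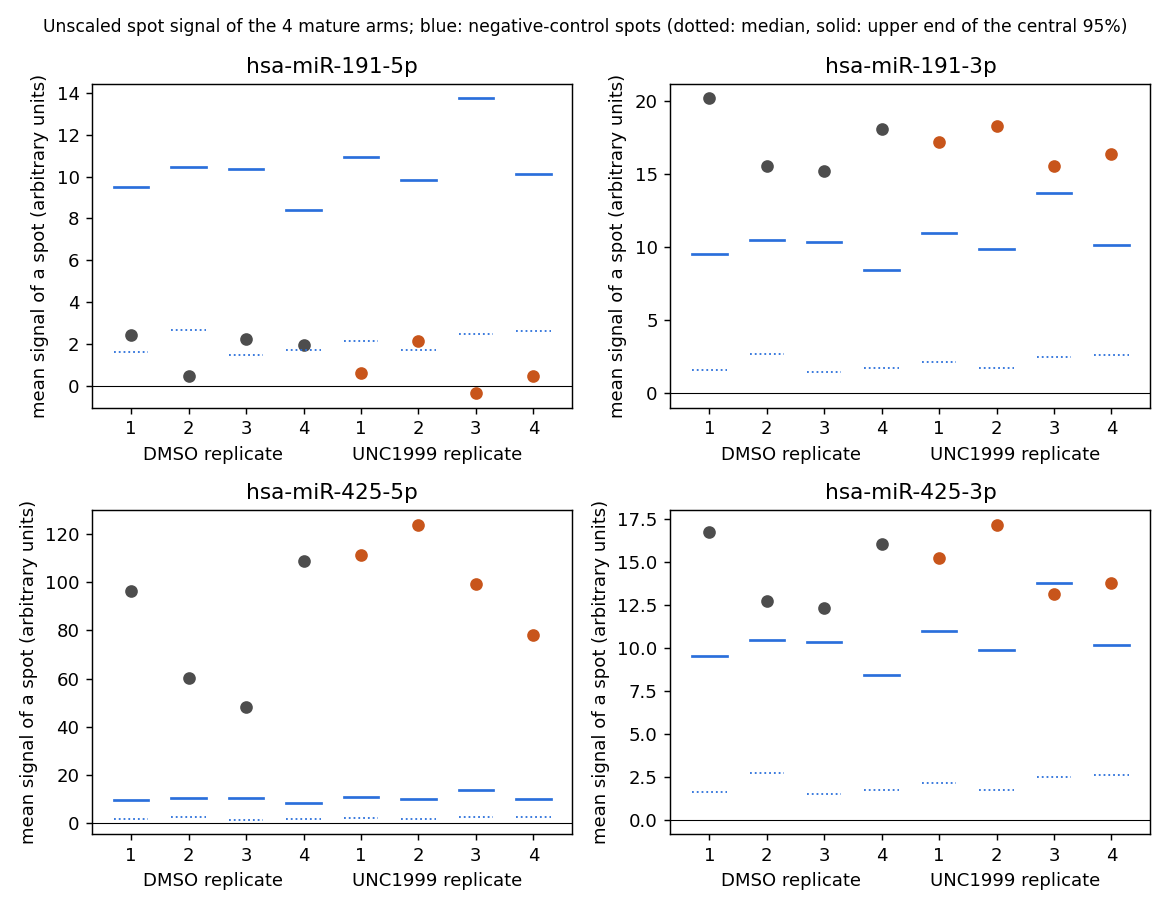
Mean background-subtracted signal of a spot (arbitrary units, linear axis) of each arm on the 4 DMSO arrays (grey) and the 4 UNC1999 arrays (orange), with the median (dotted) and the upper end of the central 95% (solid) of the negative-control spots of each array in blue. miR-191-5p lies among the negative-control spots, both 3p arms lie just above them except miR-425-3p on UNC1999 replicate 3, and miR-425-5p lies well above them.

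The comparison of DMSO with UNC1999 asked how miRNA levels differ once EZH2 has been inhibited. Levels were scaled by the 75th percentile, floored and put on the log2 scale, and limma was run on the 456 miRNAs that every array of one or both groups detected. A call needed a fold of 1.2 or more and a Benjamini-Hochberg adjusted p not above 0.05. Of the 3 members tested, 2 were called lower, both of them 3p arms, beside 34.6% of all miRNAs tested called lower. For the same 2 members DMSO and UNC1999 values did not overlap, beside 65.4% of all miRNAs tested. A scaled value is a share of what its array shows, and less of an arm per cell cannot be told apart from a larger share of other miRNAs.

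On the log2 scaled scale hsa-miR-191-3p was at 6.46, 6.53, 6.74 and 6.07 on the DMSO arrays and at 5.70, 5.74, 5.47 and 5.99 on the UNC1999 arrays. Each UNC1999 array lay below each DMSO array, with the least distance between the replicates numbered 4. The mean fell from 6.45 ± 0.28 (SD, n = 4) to 5.72 ± 0.21 (SD, n = 4), a log2 fold change of -0.72 (95% confidence interval -1.07 to -0.38, limma adjusted p = 0.00271). The exact two-sided permutation p was 0.029, the smallest that 4 against 4 arrays can give. The fall ranked 60 among the 456 miRNAs tested, counted from the largest fall.

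The values of hsa-miR-425-3p were 5.19, 5.24, 5.43 and 4.89 after DMSO and 4.52, 4.65, 4.22 and 4.74 after UNC1999 on that scale. Again no UNC1999 array reached a DMSO array. The mean fell from 5.19 ± 0.22 (SD, n = 4) to 4.53 ± 0.23 (SD, n = 4), a log2 fold change of -0.65 (95% confidence interval -0.98 to -0.33, limma adjusted p = 0.00308), and the fall ranked 78 of 456. Without UNC1999 replicate 3, on which the arm was not detected, the log2 fold change was -0.55 and the arm was still called.

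The values of hsa-miR-425-5p were 7.72, 7.48, 7.39 and 7.65 after DMSO and 7.40, 7.50, 7.14 and 7.24 after UNC1999. The groups overlapped, since UNC1999 replicates 1 and 2 lay above DMSO replicate 3. The DMSO mean was 7.56 ± 0.15 (SD, n = 4), and the UNC1999 mean 7.32 ± 0.16 (SD, n = 4). The log2 fold change was -0.24 (95% confidence interval -0.50 to 0.02, limma adjusted p = 0.0873) and the arm was not called. The interval holds 0 and also holds a change as large as the threshold of a 1.2-fold fall.

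**Figure D2:**
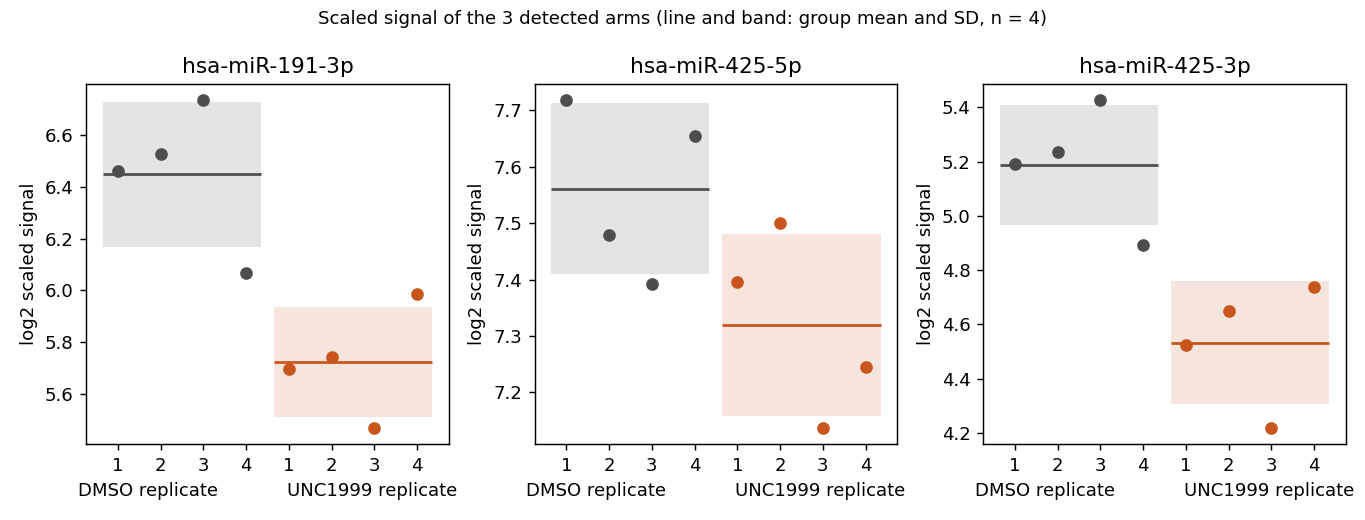
Log2 scaled signal of the 3 detected arms on each DMSO (grey) and UNC1999 (orange) array, with the mean (line) and SD (band) of the 4 arrays of a group; each panel has its own axis, which does not start at 0. The groups do not overlap for miR-191-3p and miR-425-3p and do overlap for miR-425-5p.

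The probes of an arm gave like values. Of the 4 probes of miR-191-3p the scaled log2 fold changes were -0.68, -0.64, -0.91 and -0.65, and the groups overlapped for the probe at -0.64 alone. Those of miR-425-3p were -0.66 and -0.64. Both probes of miR-425-5p gave -0.24, although with DMSO the mean unscaled spot of one was 111.7 ± 41.5 (SD, n = 4) and that of the other 44.9 ± 16.3 (SD, n = 4). These 2 probes differed in brightness and not in their fold change to this precision.

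Pairs of alike arrays were matched across the groups by the sign of their score on the second principal component of the tested miRNAs. That match was taken from the data, and the correlations between arrays linked arrays within a group only. Within the set that holds DMSO replicates 2 and 3 and UNC1999 replicates 2 and 4, the difference on the log2 scaled scale was -0.77 for miR-191-3p, -0.063 for miR-425-5p and -0.64 for miR-425-3p. Within the set of DMSO replicates 1 and 4 and UNC1999 replicates 1 and 3 it was -0.68, -0.42 and -0.67. The 3p arms differed by about the same amount in both sets and miR-425-5p did not. In both sets each UNC1999 array was brighter than each DMSO array, and the part of brightness in these differences was not tested.

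The 8 arrays lay in 2 rows of the slide, row 1 with 3 DMSO arrays and 1 UNC1999 array and row 2 with 1 and 3. Within row 1 the difference was -0.37 for miR-191-3p, -0.37 for miR-425-5p and -0.37 for miR-425-3p. Within row 2 it was -1.10, -0.05 and -0.96. With the row as a block the calls of the 3 members were the same, with log2 fold changes of -0.73, -0.21 and -0.67.

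The direction of these differences depended on the scaling, and the UNC1999 arrays were on average the brighter ones. The mean brightness was 419 ± 119 (SD, n = 4) for DMSO and 664 ± 88.4 (SD, n = 4) for UNC1999, and DMSO replicate 4 lay above UNC1999 replicate 4 (exact two-sided permutation test, p = 0.057). Without any scaling the median miRNA tested was higher by 0.67 on the log2 scale after UNC1999, and 0 of the 3 members were called, beside 51.3% of all miRNAs tested called higher and 0.877% called lower. The unscaled log2 fold changes were -0.026 for miR-191-3p (limma adjusted p = 0.946), 0.46 for miR-425-5p (limma adjusted p = 0.191) and 0.043 for miR-425-3p (limma adjusted p = 0.911).

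The DMSO and UNC1999 arrays nearest to each other in brightness were DMSO replicate 4 at 559 and UNC1999 replicate 4 at 534. UNC1999 replicate 4 is also the array whose usual reference miRNAs lay apart from those of its group, so this pair is a description of 2 arrays. With no scaling, miR-191-3p was at 72.3 and 65.5, miR-425-3p at 32.1 and 27.6, and miR-425-5p at 217 and 157. Unscaled, all 3 arms were lower on the UNC1999 array of this pair. The labelling spike-ins, control RNAs described below, were lower on it too, at 2328 against 2898. Divided by them, the log2 value of miR-191-3p was 6.06 on the DMSO array and 6.23 on the UNC1999 array. That of miR-425-3p was 4.89 and 4.98, and that of miR-425-5p 7.65 and 7.49. The direction for the 3p arms in this pair thus depended on the scaling.

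Brightness moved with the scaled values of the 3p arms within each group too. A scaled value is the level divided by this brightness, so the order given next is in part fixed by arithmetic. In the order of rising brightness, replicates 3, 2, 1 and 4, miR-191-3p was at 6.74, 6.53, 6.46 and 6.07 with DMSO, and miR-425-3p at 5.43, 5.24, 5.19 and 4.89. In that order for UNC1999, replicates 4, 1, 2 and 3, they were at 5.99, 5.70, 5.74 and 5.47, and at 4.74, 4.52, 4.65 and 4.22. The scaled level was lowest on the brightest array of either group, while the unscaled levels of these arms overlapped between groups. The part of brightness in the called falls was not tested.

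The labelling spike-ins are 2 control RNAs added in a fixed amount before labelling, and their level was not higher on the UNC1999 arrays. It was 2795 ± 296 (SD, n = 4) for DMSO and 2571 ± 182 (SD, n = 4) for UNC1999. When each array was divided by them, the median miRNA tested was higher by 0.78 on the log2 scale after UNC1999, and 64.7% of all miRNAs tested were called higher. On that scale miR-425-5p was called higher, with a log2 fold change of 0.57 (95% confidence interval 0.10 to 1.04, limma adjusted p = 0.0315). Its values were 7.37, 6.86, 6.74 and 7.65 after DMSO and 7.79, 7.92, 7.71 and 7.49 after UNC1999, and the groups overlapped through DMSO replicate 4 and UNC1999 replicate 4.

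miR-191-3p was nearly flat over the arrays when scaled to the spike-ins. Its log2 values were 6.12, 5.90, 6.08 and 6.06 after DMSO and 6.09, 6.16, 6.04 and 6.23 after UNC1999. The SD over the 8 arrays was 0.096, the lowest of the 346 miRNAs detected on all arrays, against 0.43 for miR-425-5p, which ranked 155. With the main scaling the order was turned, with an SD of 0.45 and rank 278 for miR-191-3p and an SD of 0.19 and rank 66 for miR-425-5p. Which of these arms had the lower SD thus depended on what the arrays were divided by. The spots of miR-191-3p lay only just above the negative-control spots and those of miR-425-5p well above them, and the part of this in the SD was not tested.

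The spike-in scaled log2 fold changes of the 3p arms were 0.091 for miR-191-3p (95% confidence interval -0.27 to 0.45, limma adjusted p = 0.655) and 0.16 for miR-425-3p (95% confidence interval -0.21 to 0.53, limma adjusted p = 0.437). The latter's values were 4.85, 4.61, 4.77 and 4.89 after DMSO and 4.92, 5.07, 4.79 and 4.98 after UNC1999, with overlap. Neither arm was called in either direction on that scale.

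Under 3 other settings both 3p arms stayed lower. Each of these settings also evens out brightness between the arrays, so they are not independent of the main scaling. With quantile normalization the log2 fold change was -0.64 for miR-191-3p and -0.44 for miR-425-3p, both called lower, beside 29.4% of all miRNAs tested. Scaled to the 75th percentile of all human miRNAs it was -0.50 and -0.43, both called lower, beside 19.3%. With normexp background correction it was -0.49 and -0.43, both called lower, beside 50.4%. Under these settings miR-425-5p was at -0.20, -0.02 and -0.25 and was not called.

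The scanner software's own total per miRNA was the one setting that called miR-425-5p lower, with a log2 fold change of -0.33 (limma adjusted p = 0.0315), beside 31.4% of all miRNAs tested called lower. It also called miR-191-3p lower, at -0.81, but not miR-425-3p, at -0.71 (limma adjusted p = 0.226).

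**Figure D3:**
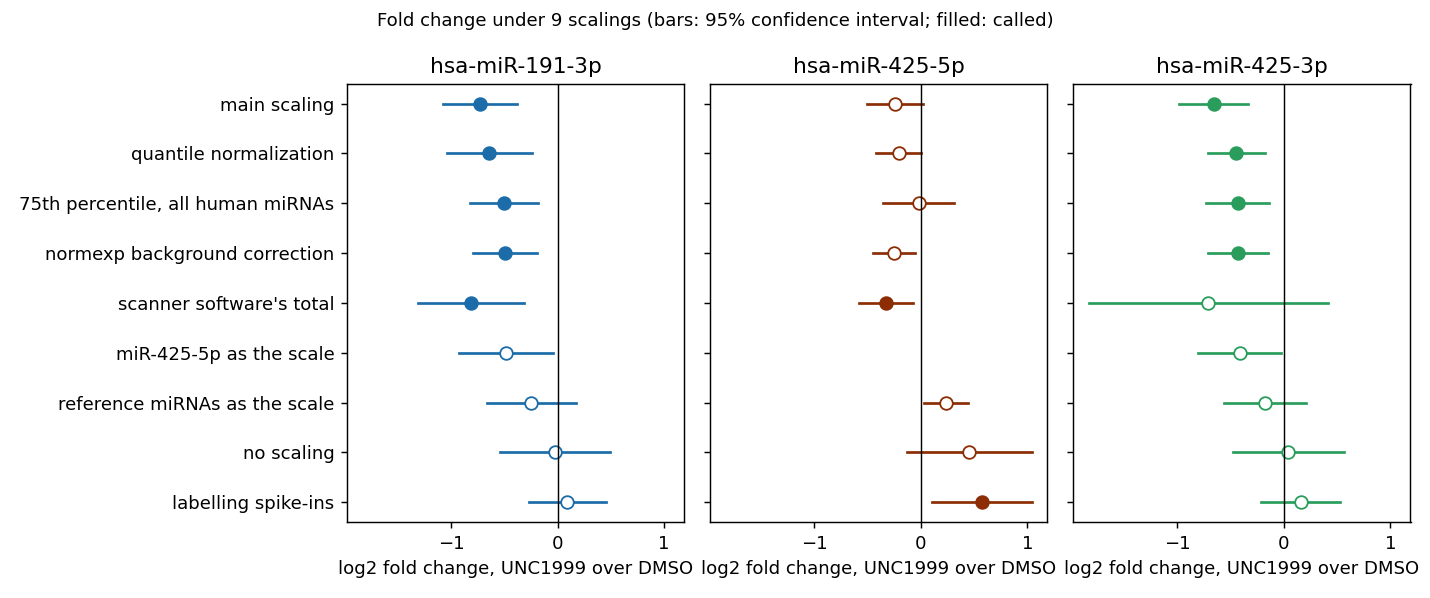
Log2 fold change of UNC1999 over DMSO of the 3 detected arms under 9 settings, with 95% confidence intervals; filled points were called. From the scanner software's total to the labelling spike-ins miR-191-3p runs from -0.81 to 0.091, miR-425-3p from -0.71 to 0.16 and miR-425-5p from -0.33 to 0.57.

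Dividing each array by 1 number moves all its miRNAs together, so the distance of a member from the median of all miRNAs tested is fixed by arithmetic, apart from the floor. miR-191-3p was 0.73 below that median with the main scaling, and its difference from the median was -0.70 without scaling and -0.69 with the spike-ins. For miR-425-3p the differences from the median were -0.67, -0.63 and -0.62, and for miR-425-5p they were -0.25, -0.22 and -0.21. The likeness of these distances is therefore no support for the changes. Normexp changes each spot and can move the distance, and with it the median of all miRNAs was at -0.29, miR-191-3p was at -0.20 from it, miR-425-3p at -0.14 and miR-425-5p at 0.04.

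The ratio of 2 members on one array is not changed by dividing the array by 1 number. The log2 ratio of miR-425-5p to miR-425-3p, the 2 arms of one hairpin, was 2.53, 2.24, 1.96 and 2.76 on the DMSO arrays and 2.87, 2.85, 2.92 and 2.51 on the UNC1999 arrays. The UNC1999 arrays lay above the DMSO arrays but for replicate 4, which lay below DMSO replicates 1 and 4. The mean was 2.37 ± 0.35 (SD, n = 4) and 2.79 ± 0.19 (SD, n = 4), a difference of 0.41 that did not pass the exact two-sided permutation test (p = 0.0857, 0.171 after Benjamini-Hochberg adjustment over 2 ratios). Within both sets of alike arrays the ratio was higher after UNC1999, by 0.58 and by 0.25. In both sets each UNC1999 array was also brighter than each DMSO array. The ratio also moved with brightness, since in the order of rising brightness it was 1.96, 2.24, 2.53 and 2.76 with DMSO and 2.51, 2.87, 2.85 and 2.92 with UNC1999. It was lowest on the dimmest array and highest on the brightest array of either group, and the part of brightness in the difference was not tested. The difference was 0.24 with normexp, 0.24 with quantile normalization, 0.24 with outlier spots kept and 1.26 with the scanner software's total.

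The log2 ratio of miR-191-3p to miR-425-3p, the passenger arms of the neighbouring hairpins, was 1.27, 1.29, 1.31 and 1.17 on the DMSO arrays and 1.17, 1.10, 1.25 and 1.25 on the UNC1999 arrays. Both of these arms lay near the negative-control spots. Their ratio varied less than that of the MIR425 arms, and the part of the low signal in this was not tested. The mean was 1.26 ± 0.06 (SD, n = 4) and 1.19 ± 0.07 (SD, n = 4), and the difference of -0.07 did not pass the exact two-sided permutation test (p = 0.20 before and after adjustment). Only the difference of a ratio between groups can be read, since probes of different arms do not bind alike. The ratios with miR-191-5p were not formed, because that arm was not detected.

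**Figure D4:**
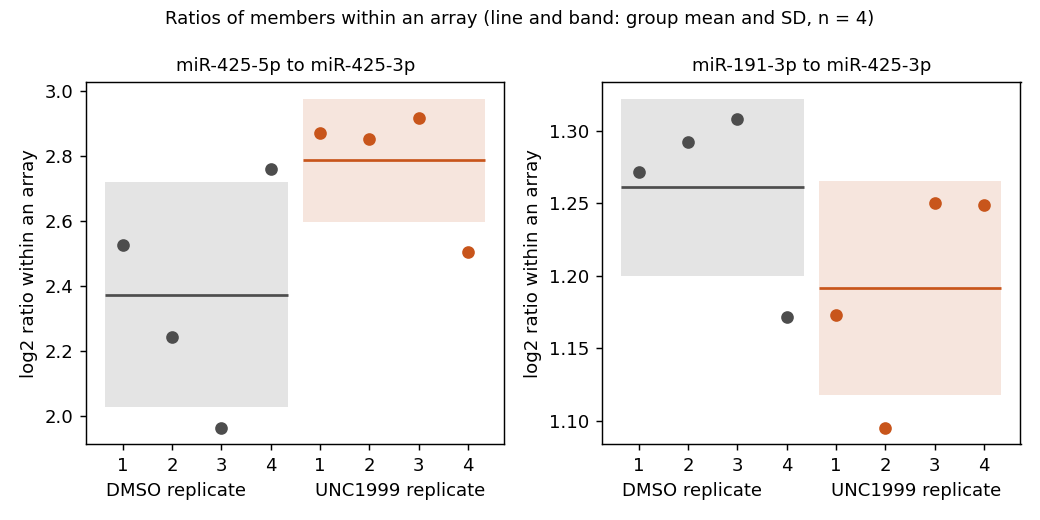
Log2 ratio of miR-425-5p to miR-425-3p and of miR-191-3p to miR-425-3p within each DMSO (grey) and UNC1999 (orange) array, with the mean (line) and SD (band) of 4 arrays; each panel has its own axis, which does not start at 0. UNC1999 replicate 4, at 2.51, lies apart from the other UNC1999 arrays in the first ratio, and the groups overlap in both.

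The members were then set beside 13 other miRNAs that are often used as references in qPCR. miR-423-3p was not detected on any array, and of the 12 tested, 11 were called lower after UNC1999 with the main scaling, beside 34.6% of all miRNAs tested, with a median log2 fold change of -0.49, against 0.01 over all. miR-103a-3p was at -0.74, miR-361-5p at -0.71, miR-16-5p at -0.56, miR-30c-5p at -0.56, miR-93-5p at -0.55 and miR-186-5p at -0.50. miR-25-3p was at -0.48, let-7a-5p at -0.48, miR-423-5p at -0.43, miR-30e-5p at -0.41 and miR-26a-5p at -0.33. The one not called was miR-24-3p, at 0.01 (limma adjusted p = 0.960). Thus miR-191-3p, at -0.72, lay between miR-103a-3p and miR-361-5p, and miR-425-5p, at -0.24, between miR-26a-5p and miR-24-3p.

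With no scaling 0 of these 12 were called lower, beside 0.877% of all miRNAs tested, and 1, miR-24-3p, was called higher, beside 51.3%, with a median of 0.21. With the spike-ins 0 were called lower, beside 1.54%, and miR-24-3p alone higher, beside 64.7%, with a median of 0.32. Scaled to the 75th percentile of all human miRNAs 2 were called lower, beside 19.3%, and with quantile normalization 10, beside 29.4%, with medians of -0.27 and -0.41. With normexp, run on these miRNAs after seeing the data, 10 were called lower, beside 50.4%, and their median of -0.34 lay near that of all miRNAs tested, -0.29. The sign of their median depended on the scaling. Its difference from the median of all miRNAs was -0.50 with the main scaling and -0.05 with normexp, which adds an offset of 50.

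**Figure D5:**
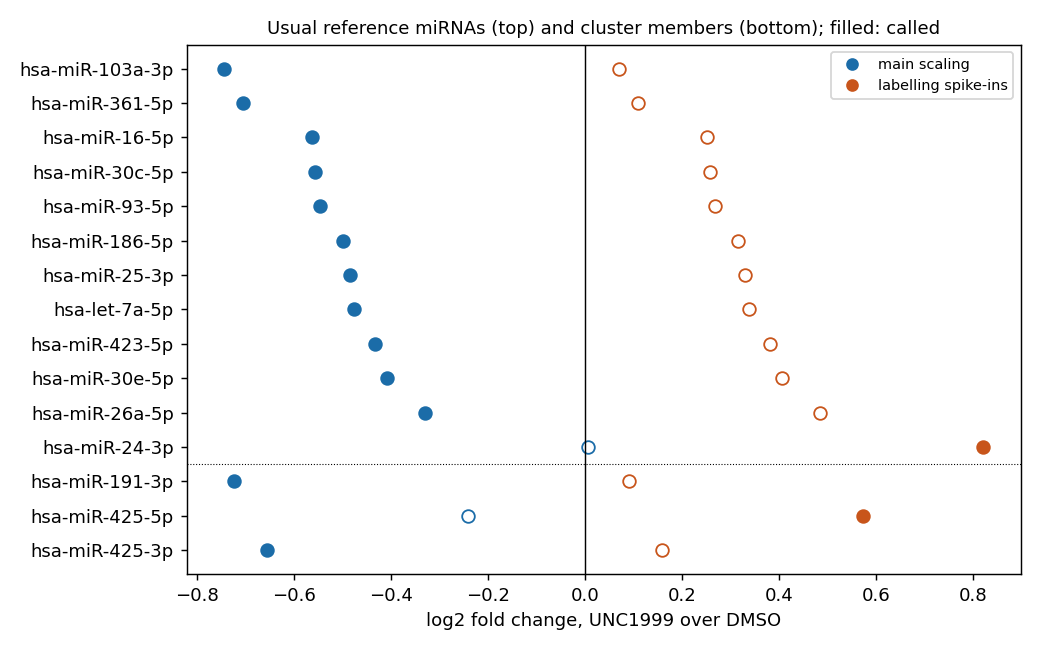
Log2 fold change of UNC1999 over DMSO of the 12 usual reference miRNAs tested (above the dotted line) and of the 3 cluster members tested (below it), with the main scaling in blue and the labelling spike-ins in orange; filled points were called. With the main scaling all but miR-24-3p and miR-425-5p are called lower, and with the spike-ins those 2 are called higher and no other miRNA shown is called.

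The arrays were next divided by references in place of the percentile, as a qPCR experiment would do. Divided by the 12 references, miR-425-5p was at 7.39, 7.30, 7.28 and 7.31 after DMSO and at 7.54, 7.70, 7.44 and 7.56 after UNC1999. The groups did not overlap, beside 64.9% of all miRNAs tested on that scale. The log2 fold change was 0.24 (95% confidence interval 0.03 to 0.44, limma adjusted p = 0.0434), under the fold of 1.2, so that the arm was not called. The 3p arms were at -0.25 (limma adjusted p = 0.269) and -0.18 (limma adjusted p = 0.384) and were not called.

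Divided by miR-425-5p itself, miR-191-3p was at -0.48 (limma adjusted p = 0.0535) and miR-425-3p at -0.41 (limma adjusted p = 0.0614), and neither was called. The value for miR-425-3p is the difference in the ratio of the MIR425 arms given above with its sign turned, and no second result. Over the whole array 281 miRNAs were called with miR-425-5p as the scale, 208 of them higher, against 322 with the main scaling, 164 of them higher. With the 12 references as the scale 304 were called, 263 of them higher. miR-191-5p could not serve as a scale on these arrays.

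The 3 miRNAs whose log2 scaled values over the 8 arrays were most like those of miR-425-5p were miR-181a-5p (Pearson r = 0.92), miR-23b-3p (r = 0.90) and miR-513a-5p (r = 0.90). The correlations of their deviations from the group means were 0.86, 0.83 and 0.81. These are descriptions of 8 arrays, which share their brightness and scaling among all miRNAs. miR-181a-5p had a log2 fold change of -0.22 (limma adjusted p = 0.112), miR-23b-3p of -0.30 (limma adjusted p = 0.0267) and miR-513a-5p of -0.46 (limma adjusted p = 0.0134).

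In the table of log2 values that the authors deposited for the same arrays, miR-191-5p lay between -3.32 and -3.13, at or near the value that table gives miRNAs not detected. miR-191-3p was at 2.52, 2.82, 2.67 and 2.07 after DMSO and at 0.87, 0.80, 0.55 and 2.05 after UNC1999, and UNC1999 replicate 4 lay close to DMSO replicate 4. When these values were fitted in the same way, its log2 fold change was -1.45 (limma adjusted p = 0.00979). miR-425-5p was at -0.19 (limma adjusted p = 0.111). miR-425-3p was at -2.06 (limma adjusted p = 0.102), and its value on UNC1999 replicate 3, where it was not detected, was -3.32.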

How the data were processed

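Mature miRNAs were measured on 8 single-colour Agilent arrays (SurePrint G3 Human miRNA, Cy3), 1 per sample. What the authors deposited is, per array, the spot table of the scanner software (Agilent Feature Extraction 10.7.3.1 per the submitters' processing notes), whose intensity per spot has the background subtracted and no normalization between arrays. A processed table with 1 column of log2 values per array was deposited too. The study's methods name GeneSpring and a moderated test with a fold of 1.2, and not the signal column, scaling or filter. The other columns used, deposited by the authors' scanner software, are marks for detection, outliers and background.

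Spots of a probe were averaged without outlier spots, the probes of a miRNA summed, and each array divided by its 75th percentile over the 346 human miRNAs detected on all arrays and brought back to the geometric mean percentile. A floor of 8.98 was applied before log2, namely the median, across arrays, of the dimmest scaled signal that was called detected, so that a fold change of a dim miRNA can be understated. For the 456 miRNAs tested, limma 3.58.1 (lmFit, then eBayes, R 4.3.3) was used with Benjamini-Hochberg adjustment over all of them. Single values were tested with exact two-sided permutation tests. The fit was run on simulated arrays with known changes and independent noise, so alike arrays and signals near background were not covered by that run. Ratios used unscaled levels without a floor.

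Named miRNAs were the members, the 13 usual references and, for the 5p arms, the 3 miRNAs detected on all arrays with the highest Pearson correlation. The members and lists were chosen with earlier results of these data known. Alternatives were other scalings, background corrections, filters, floors, blocks, the authors' table, the paired t-test of the study's statistics section and leaving out each array. Normexp (offset 50) took the median spot signal, since the files hold no mean signal as planned. Subtracting the negative-control median, and normexp for the references, were chosen after seeing the data. Mature and hairpin sequences, matched by name for 3 of 4 arms, are from RefSeq (GRCh38.p14). The number of arrays limits the precision. Where alike arrays share a culture, p-values measure the spread between these samples, which may be technical.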

Additional observations from a re-analysis of the deposited data

Results flagged for a closer look

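In 40 groups of 4 arrays examined, 2 values lay far from the other 3 of their group, and chance flags about 1 in 20 such groups. The log2 ratio of miR-425-5p to miR-425-3p on UNC1999 replicate 4 was 2.51, against 2.85 to 2.92 on the other UNC1999 arrays. The level of the 12 usual reference miRNAs on the same array was 337.2, against 466 to 489 on the other UNC1999 arrays. This array also had the lowest 75th percentile of its group, 534. Without it the log2 fold change was -0.81 for miR-191-3p, -0.22 for miR-425-5p and -0.72 for miR-425-3p, with the same calls.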

How the results depend on the processing

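With each array left out in turn the log2 fold change was -0.85 to -0.63 for miR-191-3p, -0.30 to -0.18 for miR-425-5p and -0.75 to -0.55 for miR-425-3p, with the same calls, and 292 to 326 miRNAs were called. The ratio of miR-425-5p to miR-425-3p then differed by 0.28 to 0.54 and that of miR-191-3p to miR-425-3p by -0.10 to -0.04. Scaled to the spike-ins the log2 fold changes were 0.091, 0.57 and 0.16 (in the order miR-191-3p, miR-425-5p, miR-425-3p), without scaling -0.026, 0.46 and 0.043, and scaled to the usual references -0.25, 0.24 and -0.18. With miR-425-5p as the scale miR-191-3p was at -0.48 and miR-425-3p at -0.41, both no longer called. With only the 346 miRNAs detected on all 8 arrays tested, miR-191-3p kept -0.72 and its call, and miR-425-5p was not called. miR-425-3p did not pass that filter and was not tested under it. With no filter on detection, where 2549 miRNAs were adjusted for, the 3p arms kept -0.72 and -0.65 and were not called, and 198 miRNAs were called. The scanner software's total gave -0.33 for miR-425-5p and -0.71 for miR-425-3p, raised the difference of the ratio of the MIR425 arms to 1.26 and turned that of the 3p arms to 0.77, where it lists miR-425-3p on UNC1999 replicate 3 at a low fixed value. In the authors' table miR-425-3p was at -2.06 and was not called, with either filter, and with every feature tested 206 miRNAs were called. The paired t-test that the study's statistics section names, paired by replicate number, called 236 miRNAs unadjusted and 152 after adjustment, and no member, with unadjusted p-values of 0.0594 for miR-191-3p, 0.0812 for miR-425-5p and 0.0563 for miR-425-3p. The usual references called lower were 11 with the main scaling, 0 without scaling, 0 with the spike-ins and 2 when scaled to the 75th percentile of all human miRNAs. The correlations of same-numbered deviations from the group means were 0.18, 0.27, -0.42 and -0.39. They cannot show whether same-numbered samples were cultured together, which was not tested. With the replicate block the log2 fold changes of -0.72, -0.24 and -0.65 had limma adjusted p-values of 0.00737, 0.120 and 0.00848, and this limma block changed no call of a member. Scaling to miR-191-5p was not run because it was not detected. Signals near background limit both 3p arms.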
